A study of Mus musculus with 59 samples.

Results

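The 8 genes described here are Atxn1, its paralog Atxn1l, and 6 genes whose proteins are known or reported to bind ATXN1: the transcriptional repressor Cic, the transcription factors Rfx1, Zkscan1 and Zbtb5, and the splicing factors Rbm17 and U2af2. They were chosen by name from the 54232 mouse genes counted in each library. No rule on their values was used, but earlier results of these data were known when they were chosen. RNA-seq counts were available for 59 libraries from 12 mice aged 10 weeks, labelled C57BL/6 and of the C57BL/6J background by the study's methods. The cerebellum, brainstem, hippocampus, striatum and cortex were dissected from 4 wildtype (WT) mice, 4 Atxn1 154Q/2Q mice and 4 Atxn1 154Q[V591A;S602D]/2Q mice, and every group held 4 libraries, or 3 for the brainstem of the last genotype. Both mutant genotypes were heterozygous, carried 1 allele with 2 glutamines, as WT mice do on both alleles, and were untreated. Atxn1 154Q/2Q is a knock-in line in which the other allele encodes an expanded glutamine tract and is expressed from the gene's own promoter in all cells that use it. For the other line, the same expanded allele was edited in fertilized eggs and also carries V591A and S602D, which disrupt the interaction with CIC, and the founders were bred to C57BL/6J mice for several generations. Below, 154Q and 154Q-AXH stand for the mutant genotypes, and WT-70 or 154Q-76 stands for a single mouse. Values per library follow the mouse numbers: WT-70, WT-77, WT-220, then WT-221, likewise 154Q-69, 154Q-71, 154Q-75, then 154Q-76, and 154Q-AXH-207, then 154Q-AXH-209, then 154Q-AXH-217, then 154Q-AXH-218.

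ATXN1 is a nuclear protein that binds RNA and transcriptional regulators. An expanded glutamine tract in it causes spinocerebellar ataxia type 1, in which Purkinje cells of the cerebellum and neurons of the brainstem are lost. Most ATXN1 is held in a complex with CIC, an HMG-box repressor of genes induced by receptor tyrosine kinase signaling, and ATXN1L binds CIC through the same domain, the AXH domain. RBM17 and U2AF2 belong to the machinery that recognizes the 3' end of introns, and RBM17 is known to bind expanded ATXN1 in a complex separate from that with CIC. RFX1, ZKSCAN1 and ZBTB5 are DNA-binding proteins of the winged-helix, KRAB-SCAN zinc finger and BTB zinc finger families, which can repress transcription.

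On GRCm38, Atxn1 (ENSMUSG00000046876) lies at chr13:45549755-45965008 on the minus strand, Atxn1l (ENSMUSG00000069895) at chr8:109726451-109737739 on the minus strand and Cic (ENSMUSG00000005442) at chr7:25267704-25294159 on the plus strand. Rfx1 (ENSMUSG00000031706) lies at chr8:84066834-84096992 on the plus strand, Zkscan1 (ENSMUSG00000029729) at chr5:138085084-138107822 on the plus strand and Zbtb5 (ENSMUSG00000049657) at chr4:44991242-45012412 on the minus strand. Rbm17 (ENSMUSG00000037197) lies at chr2:11585437-11604153 on the minus strand and U2af2 (ENSMUSG00000030435) at chr7:5062143-5079938 on the plus strand. Counts cover the exons of each gene, from 2.41 kb (Rbm17) to 13.9 kb (Atxn1).

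The stretch of the AXH domain that separates the 2 mutant genotypes is shown for Atxn1 and Atxn1l, because it is what the edit changed and what the paralog shares. Both are GRCm38 reference sequences, 54 bases long and written 5′ to 3′ along the coding strand, with capitals at the codons changed by V591A and S602D (numbered as in the human protein) in Atxn1 and at the aligned codons in Atxn1l. By the study's methods, the edit also made synonymous changes to codons between the marked ones, which are not marked here. The Atxn1 stretch lies in coding sequence at chr13:45566678-45566731 on the minus strand, in exon 7 of the 8 exons of the longest transcript that holds a coding sequence. The Atxn1l stretch lies in coding sequence at chr8:109732138-109732191 on the minus strand, in exon 4 of 4.
Atxn1: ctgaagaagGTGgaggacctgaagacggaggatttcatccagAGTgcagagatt
Atxn1l: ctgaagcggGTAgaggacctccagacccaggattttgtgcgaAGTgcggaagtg
Of the 54 bases, 38 were identical (70.4%), and both genes have a valine and a serine codon at the marked places, which are residues 566 and 577 of the 791 residues of mouse ATXN1 in this annotation and residues 483 and 494 of the 687 of ATXN1L. The study's methods give the 2 mouse ATXN1 residues other numbers than this annotation does. Over the whole alignment 264 of 641 residues were identical (41.2%), and around the marked codons 53 of 98 (54.1%). Neither the repeat nor the edited codons can be seen in counts per gene, and each Atxn1 count sums both alleles, so the Atxn1 level is no check of the labelled genotype.

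The libraries held from 28.1 to 112 M counted read pairs, with a median of 85.4 M for cerebellum, 89.6 M for brainstem, 83.1 M for hippocampus, 35.3 M for striatum and 39.7 M for cortex. Striatal and cortical libraries held at most 54.7 M, and every library of the other regions held at least 64.4 M. In comparisons across that line, region and this difference between libraries cannot be told apart. All 8 genes passed the filter on low counts in each region, with from 241 read pairs (Zbtb5, the lowest value in any library) to 20251 (Cic, the highest). Marker genes of each region were highest in libraries of that region, except that the cortical markers of some striatal libraries reached the cortical range, and 3 sets of libraries stood apart. The hippocampal library of 154Q-76 held 306 CPM of brainstem markers (CPM, counts relative to the library total after scaling, summed over 5 genes), against 0.252 to 1.6 CPM in the other 11 hippocampal libraries. The striatal libraries held cortical markers at 88.4 to 318 CPM, against 315 to 370 CPM in the cortex, and their 5 striatal markers ranged from 459 to 4249 CPM. WT-220 and 154Q-AXH-217 had the highest striatal markers (4249 and 2509 CPM) and the lowest cortical ones (110 and 88.4 CPM). Striatal fits without them therefore rest on the libraries with more cortical markers. In the cortex, the file names of 154Q-76 and 154Q-AXH-207 give each other's mouse (the labels were used), and WT-221 differed in Xist from its other regions. The hippocampal, striatal and cortical genotype results and the region pairs were also computed without these libraries, and the values are given where they bear on a call. In tissue homogenates, fewer cells of a type and less RNA per cell cannot be told apart.

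Levels are given as CPM after TMM scaling over all 59 libraries, and levels of different genes are compared per kilobase (kb) of exon. In WT mice, U2af2 was the highest of the 8 genes per length in every region, from 26.9 ± 0.718 CPM per kb in the brainstem to 43.6 ± 3.37 in the striatum (SD, n = 4). Rbm17 followed with 21.6 ± 0.307 to 27.7 ± 1.41 CPM per kb, and Cic with 10.9 ± 0.157 to 18.5 ± 1.89. Atxn1l lay between 6.17 ± 0.317 and 8.6 ± 0.707 CPM per kb and Atxn1 between 2.5 ± 0.16 and 5.35 ± 0.54, so that the paralog was above Atxn1 in each of the 5 regions. The ratio of Atxn1l to Atxn1 per length was 2.46 ± 0.308 in cerebellum, 2.47 ± 0.227 in brainstem and 1.37 ± 0.118 in hippocampus (SD, n = 4), and no WT hippocampal library reached the lowest cerebellar one (1.48 against 2.09). Cic exceeded Atxn1 per length 5.28 ± 0.662 times in the cerebellum and 2.45 ± 0.0977 times in the hippocampus (SD, n = 4), also without overlap. Rfx1 and Zbtb5 were low, at 1.85 ± 0.173 to 4.02 ± 0.264 and 1.99 ± 0.0909 to 3.1 ± 0.226 CPM per kb.

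**Figure D1:**
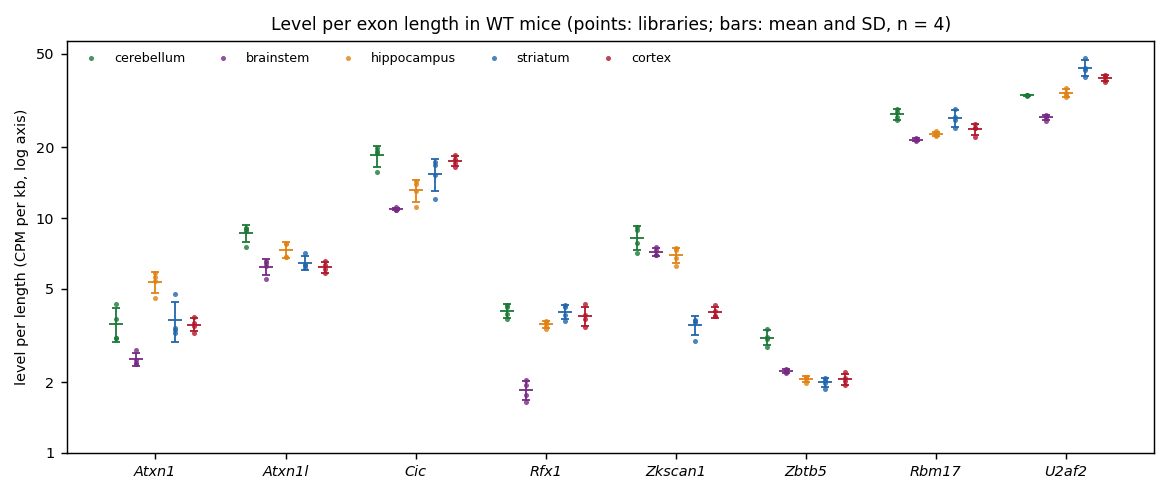
Level of each gene in the 4 WT mice, in CPM per kb of exon on a log axis, with a point for each library and bars for the mean and SD, colored by region. U2af2, Rbm17 and Cic lie above the other 5 genes in every region, Atxn1 is highest in the hippocampus, and Zkscan1 falls to 3.49 CPM per kb in the striatum and 3.97 in the cortex.

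To order the regions, all 10 pairs were compared in WT mice. Of the 80 tests, 51 passed an adjusted p of 0.05 (edgeR quasi-likelihood test, Benjamini-Hochberg adjustment over all genes tested), and the genes that passed in each pair are read against the share of all genes called in it. The cerebellum differed from the brainstem in 7 of the 8 genes (65.4% of all genes were called in this pair), from the hippocampus in 6 (63.6%), from the striatum in 5 (71.8%) and from the cortex in 5 (70.3%). The brainstem differed from the hippocampus in 5 (60.7%), from the striatum in 7 (66.1%) and from the cortex in 5 (65.1%). The hippocampus differed from the striatum in 5 (58.2%) and from the cortex in 5 (55.4%). The striatum and cortex differed in U2af2 alone (10.7%), a call that most alternatives lost. Cortical markers summed to 110 to 313 CPM in the WT striatal libraries, against 353 to 370 CPM in the WT cortex. The part of these markers in the likeness of striatum and cortex was not tested. The shares of the 8 genes called in the pairs are near the background, and the paragraphs that follow give the pattern of each gene.

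Atxn1 was highest in the hippocampus and lowest in the brainstem. In the hippocampus its level was 77.7 CPM in WT-70, 63.8 in WT-77, 75.2 in WT-220 and 81.1 in WT-221. In the brainstem the same mice had 33.6, 38.1, 34.5 and 33.1 CPM. The lowest hippocampal library was above the highest of any WT brainstem library, and the hippocampal level was 2.14-fold higher (log2 difference 1.10, 95% interval 0.85 to 1.34, adjusted p = 9.51e-08 in the edgeR test). The striatum (51.3 ± 9.96 CPM, SD, n = 4), cerebellum (49.2 ± 8.07) and cortex (48.9 ± 3.02) came between, and no pair of them passed the test (adjusted p from 0.576 to 0.963 in the edgeR test). The cerebellum, which holds the Purkinje cells affected in the disease, was lower in Atxn1 than the hippocampus by 0.62 on the log2 scale (that is, the hippocampus was 1.53-fold higher, adjusted p = 0.00012 in the edgeR test) and above the brainstem by 0.48 (adjusted p = 0.00137). In 154Q and 154Q-AXH mice the hippocampus and brainstem were again the highest and the lowest of the 5 regions by mean.

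Atxn1l had another order, with the cerebellum first at 66.1, 56.9, 67.6 and 68.3 CPM in the 4 WT mice. The cortex was last by mean, with 49.3, 43.8, 45.5 and 47.3 CPM. Every cerebellar library was above every cortical one, a 1.39-fold difference (adjusted p = 1.1e-05 in the edgeR test). The hippocampus came second at 55.1 ± 4.31 CPM, and the striatum, brainstem and cortex, from 46.5 to 48.6 CPM by mean, passed the test in no pair (adjusted p from 0.511 to 0.839). The hippocampus was above the striatum by 0.19 on the log2 scale (adjusted p = 0.0403 in the edgeR test), which did not pass with DESeq2 (adjusted p = 0.0533) or without the cortical library of WT-221 or the striatal library of WT-220 (0.0652 and 0.0901 in the edgeR test).

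Cic was highest in the cerebellum (190 ± 19.5 CPM, SD, n = 4) and cortex (180 ± 8.83), intermediate in the striatum (159 ± 24.4) and hippocampus (135 ± 14.5), and lowest in the brainstem. The brainstem libraries of the 4 WT mice lay between 111 and 115 CPM and the cerebellar ones between 162 and 205 CPM. These ranges did not overlap, and the cerebellum was 1.67-fold higher (adjusted p = 1.23e-06 in the edgeR test). The difference of the cerebellum from the striatum (log2 0.25, adjusted p = 0.0283) depended on the libraries used: without the striatal library of WT-220, which held 125 CPM of Cic against 157 to 179 CPM in the other 3 WT striata, it was 0.13 (adjusted p = 0.165, edgeR test), and without the cortical library of WT-221 it was 0.20 (0.0671). The striatal library of WT-220 also had the highest striatal markers, so leaving it out does not give a purer striatum. The hippocampus was below the striatum by 0.23 on the log2 scale, with an adjusted p of 0.0539 without and 0.0328 with the mouse as a block, and without the striatal library of WT-220 by 0.33 (adjusted p = 0.0017, edgeR test).

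Rfx1, a repressor of the RFX family, stood apart in 1 region. Its brainstem level was 12.5, 11.3, 10.6 and 13.1 CPM in the 4 WT mice, whereas the other 4 regions held from 21.6 to 27.7 CPM in the WT libraries. No library of another region came near the brainstem range, and each of the 4 differences from the brainstem passed the test, from 1.91-fold (hippocampus) to 2.16-fold (striatum), with adjusted p of 1.92e-09 or below (edgeR test). None of the 6 pairs among the other regions passed in the main fit (lowest adjusted p = 0.0528, hippocampus against striatum). That pair was called by DESeq2 (0.0451) and by the edgeR test without the cortical library of WT-221 (0.031). First-strand counts called the hippocampus against the striatum (log2 -0.25, adjusted p = 0.0184) and cortex (-0.24, 0.0265), and the cerebellum against the hippocampus (0.22, 0.0282, edgeR test). The mutant genotypes showed the same gap, with 9.4 to 12.3 CPM in the brainstem and 16.8 to 36.5 CPM in the other regions.

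Zkscan1, a KRAB-SCAN zinc finger gene, split the regions in another way. WT levels were 70.5 ± 8.17 CPM in the cerebellum, 61.5 ± 2.36 in the brainstem and 59.3 ± 4.62 in the hippocampus, against 33.9 ± 1.8 in the cortex and 29.8 ± 2.76 in the striatum (SD, n = 4). The lowest library of the first 3 regions held 53.4 CPM and the highest of the other 2 held 36.4 CPM. All 6 differences across this gap passed, from 1.77-fold (hippocampus over cortex) to 2.35-fold (cerebellum over striatum, adjusted p = 5.13e-11 in the edgeR test), and the striatum against the cortex did not pass (adjusted p = 0.186). The same line divides the regions by counted read pairs, so region and that difference between libraries cannot be told apart here.

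Zbtb5, a BTB zinc finger gene, was higher in the cerebellum, with 17, 15.9, 19 and 17.5 CPM in the 4 WT mice, than in any library of the other regions, which held from 10.5 to 12.7 CPM in WT mice. The 4 differences from the cerebellum were 1.37-fold to 1.53-fold (adjusted p of 1.35e-06 or below in the edgeR test). Among the other regions, the brainstem was above the striatum by 0.16 on the log2 scale (adjusted p = 0.0357), and the other 5 pairs did not pass. That call was lost with first-strand counts (adjusted p = 0.133), with no filter on low counts (0.0879) and without any of WT-70, WT-77 and WT-221.

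Of the splicing factors, Rbm17 had the narrowest range over regions among the 8 genes, from 51.9 ± 0.739 CPM in the brainstem to 66.6 ± 3.39 in the cerebellum (SD, n = 4), a 1.27-fold difference (adjusted p = 2.41e-05 in the edgeR test), and none of the 4 pairs of neighbors in its order passed. With the mouse as a block, 2 more Rbm17 pairs passed, the cortex over the brainstem (adjusted p = 0.0326, against 0.0534 without the block and 0.0236 without the striatal library of WT-220) and the striatum over the cortex (0.0373, against 0.063). U2af2, the large subunit of the factor that binds the polypyrimidine tract, was highest in the striatum with 177, 179, 198 and 164 CPM in the 4 WT mice, and lowest in the brainstem with 113, 112, 110 and 107 CPM. The groups did not overlap, and the striatum was 1.62-fold higher (adjusted p = 2.13e-10 in the edgeR test). U2af2 differed in 9 of 10 pairs, and the exception was the cerebellum and hippocampus (adjusted p = 0.379). The striatum over the cortex (1.12-fold, adjusted p = 0.0468) passed with DESeq2 (0.0255) but not without the striatal library of WT-220 (0.197 in the edgeR test) or the cortical library of WT-221 (0.186). In the edgeR test it was also lost with DESeq2 size factors (adjusted p = 0.0685), no filter on low counts (0.168) and first-strand counts (0.12). Leaving out any 1 of the 4 WT mice lost it too (0.114 to 0.288).

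**Figure D2:**
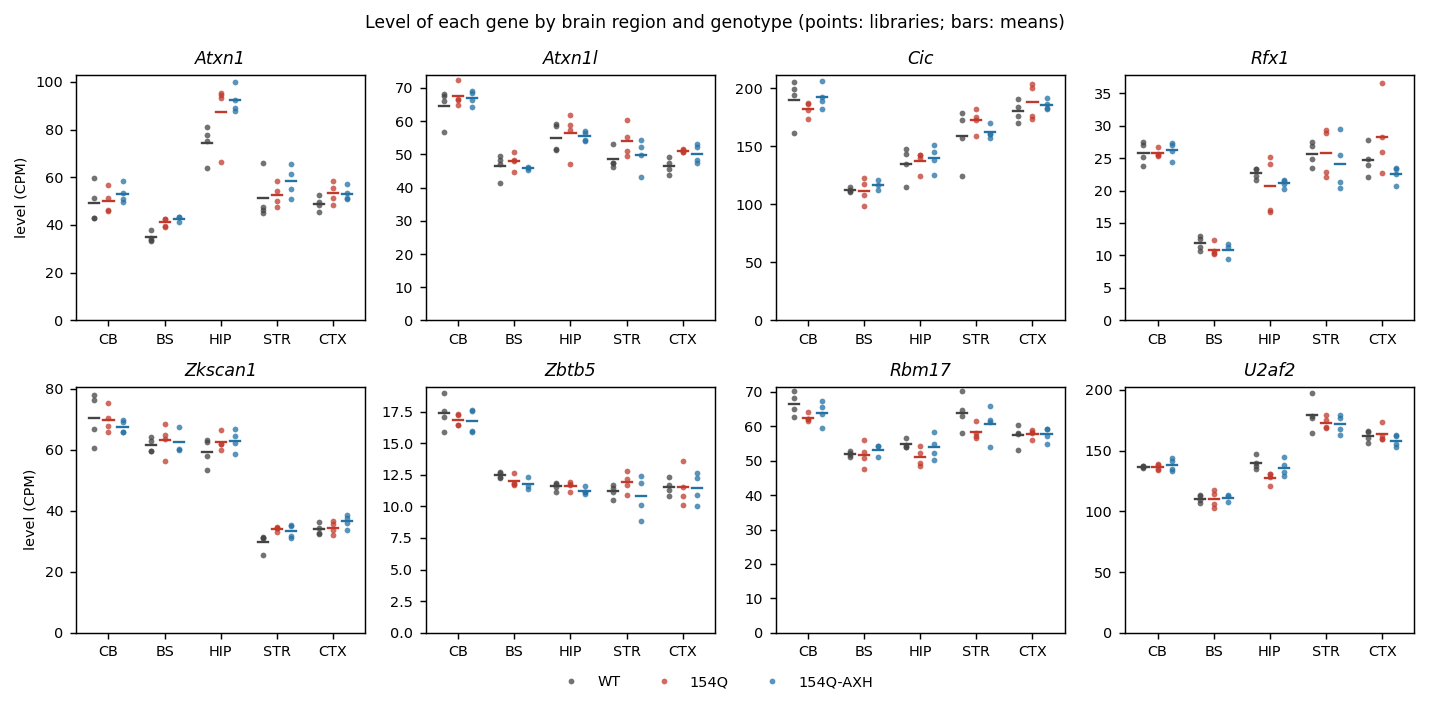
CPM of each gene (linear axis from 0) in the cerebellum (CB), brainstem (BS), hippocampus (HIP), striatum (STR) and cortex (CTX), with a point for each library, a bar for each mean and a color for each genotype. The steps between regions (Rfx1 in the brainstem, Zkscan1 in the striatum and cortex, Zbtb5 in the cerebellum) are present in all 3 genotypes, and 154Q-76 lies apart at 66.5 CPM of Atxn1 in the hippocampus.

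Cell type markers also differed between the regions. The 6 oligodendrocyte markers summed to 17097 to 22680 CPM in the brainstem and to 4776 to 7568 CPM in the cortex, and the 5 astrocyte markers to 3086 to 4328 CPM in the hippocampus and 1465 to 2047 CPM in the striatum. The 4 pan-neuronal markers ranged from 3510 to 4326 CPM in the cerebellum and from 4462 to 6191 CPM in the cortex. The part of cell composition in the regional differences of the 8 genes was not tested.

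Whether the 8 genes differed between genotypes was asked within each region, with the 3 genotypes in 1 fit. Both mutant genotypes share the WT libraries, and each comparison has its own values below. None of the 8 genes passed an adjusted p of 0.05 in any of the 15 comparisons (0 of 120 tests, edgeR quasi-likelihood test, Benjamini-Hochberg adjustment). At an unadjusted p under 0.05 there were 9 of 120 (7.5%), against 13.4% of all tests in these comparisons, and DESeq2 called 2. For 154Q against WT, 5.22% of all genes were called in cerebellum, 0.538% in brainstem, 5.91% in hippocampus, 5.69% in striatum and 11.1% in cortex. For 154Q-AXH against WT it was 2.21%, 0.0138%, 1.3%, 1.35% and 7.15% in the same order, and for 154Q-AXH against 154Q it was 0.0335% in the cerebellum and 0% in each of the other 4 regions. The 80 differences from WT lay between -0.15 and 0.30 on the log2 scale, with standard errors from 0.036 to 0.127, and their 95% intervals all lay between 0.769-fold and 1.44-fold. In 7 of the 80 the libraries of the 2 genotypes did not overlap. The share of all genes without overlap was not counted, so ranges apart are descriptions only in what follows.

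Atxn1, the gene that carries the expansion, had the largest of these differences. It was above WT by estimate in all 10 comparisons of a mutant genotype with WT, by 0.02 to 0.25 (log2) in 154Q and by 0.10 to 0.30 in 154Q-AXH, but with the number series of the mice as a covariate the 154Q-AXH cerebellum was below WT (-0.05). Over all alternatives, the lowest estimates in the 154Q cerebellum and striatum were also below WT (-0.04 and -0.03). In the brainstem, Atxn1 was at 33.6, 38.1, 34.5 and 33.1 CPM in the 4 WT mice. It was at 42.6, 39.3, 39.7 and 42.6 CPM in the 4 154Q mice, and at 43.2, 43.3 and 41.4 CPM in 154Q-AXH-207, 154Q-AXH-209 and 154Q-AXH-218. Every mutant library was above every WT library. The 154Q difference was 0.24 (log2, 95% interval 0.12 to 0.35), with an adjusted p of 0.0785 in the edgeR test. The 154Q-AXH difference was 0.28 (0.15 to 0.40), with an adjusted p of 0.219 in the edgeR test. DESeq2 called both (adjusted p = 0.00363 and 0.00452), where it called 2.17% and 0.38% of all genes tested, and without WT-77 the edgeR test called the 154Q difference (0.28, adjusted p = 0.0426). The 5 astrocyte markers summed to 3234 to 3884 CPM in the WT brainstem, 2687 to 2943 CPM in 154Q and 2851 to 3350 CPM in 154Q-AXH, without overlap between WT and 154Q, and their part in the Atxn1 difference was not tested.

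In the hippocampus, Atxn1 was at 77.7, 63.8, 75.2 and 81.1 CPM in the 4 WT mice, at 95.2, 93.1 and 94.3 CPM in 154Q-69, 154Q-71 and 154Q-75, and at 66.5 CPM in 154Q-76. The 4 154Q-AXH mice had 88, 88.9, 92.6 and 99.7 CPM. The 154Q-AXH libraries and 3 of the 4 154Q libraries were above every WT library, and 154Q-76, the library with brainstem markers, was within the WT range. With all libraries the 154Q difference was 0.25 (log2, adjusted p = 0.186 in the edgeR test) and the 154Q-AXH difference 0.30 (adjusted p = 0.186). Without the library of 154Q-76 both passed, at 0.35 for 154Q (1.27-fold, adjusted p = 0.0154) and 0.30 for 154Q-AXH (1.23-fold, adjusted p = 0.03), in fits that called 6.06% and 3.61% of all genes. Leaving out this library changed no call of the other 7 genes there. The 4 hippocampal markers summed to 291 to 375 CPM in WT, 150 to 191 CPM in 154Q and 203 to 400 CPM in 154Q-AXH libraries. The 4 pan-neuronal markers summed to 4365 to 4873 CPM in WT, 3843 to 4348 CPM in 154Q and 4030 to 4223 CPM in 154Q-AXH libraries, without overlap between WT and either mutant genotype. The part of these markers in the Atxn1 difference was not tested.

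In the cerebellum, Atxn1 was at 43, 42.8, 59.7 and 51.5 CPM in the 4 WT mice, from 45.9 to 56.8 CPM in 154Q and from 49.5 to 58.5 CPM in 154Q-AXH libraries. The groups overlapped throughout, with log2 differences of 0.03 (95% interval -0.17 to 0.23) and 0.10 (-0.10 to 0.30). Mouse numbers fall into a low series, with all 154Q mice, WT-70 and WT-77, and a high series, with all 154Q-AXH mice, WT-220 and WT-221, and the cerebellar libraries of the WT mice held 43 and 42.8 CPM in the low and 59.7 and 51.5 CPM in the high series. With the series as a covariate the differences were 0.20 (adjusted p = 0.232 in the edgeR test) and -0.05 (0.766), so the direction in 154Q-AXH turned. In the cortex WT libraries lay between 45.2 and 52.6 CPM, 154Q between 48.2 and 58.5 and 154Q-AXH between 50.9 and 57, with differences of 0.13 (adjusted p = 0.199 in the edgeR test) and 0.12 (0.297). Neither passed without WT-221 (0.14 and 0.13) or without the cortical pair whose file names and labels disagree (0.11 and 0.14). In the striatum 3 WT libraries held 45.1 to 47.5 CPM and WT-220 held 66.1 CPM. The differences there were 0.02 and 0.18 with all libraries and 0.18 and 0.27 without the striatal libraries of WT-220 and 154Q-AXH-217, which had the lowest cortical markers (adjusted p = 0.184 and 0.103 in the edgeR test). The 2 mutant genotypes did not pass against each other in any region, with Atxn1 differences from -0.01 to 0.16 and intervals from -0.17 to 0.42.

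**Figure D3:**
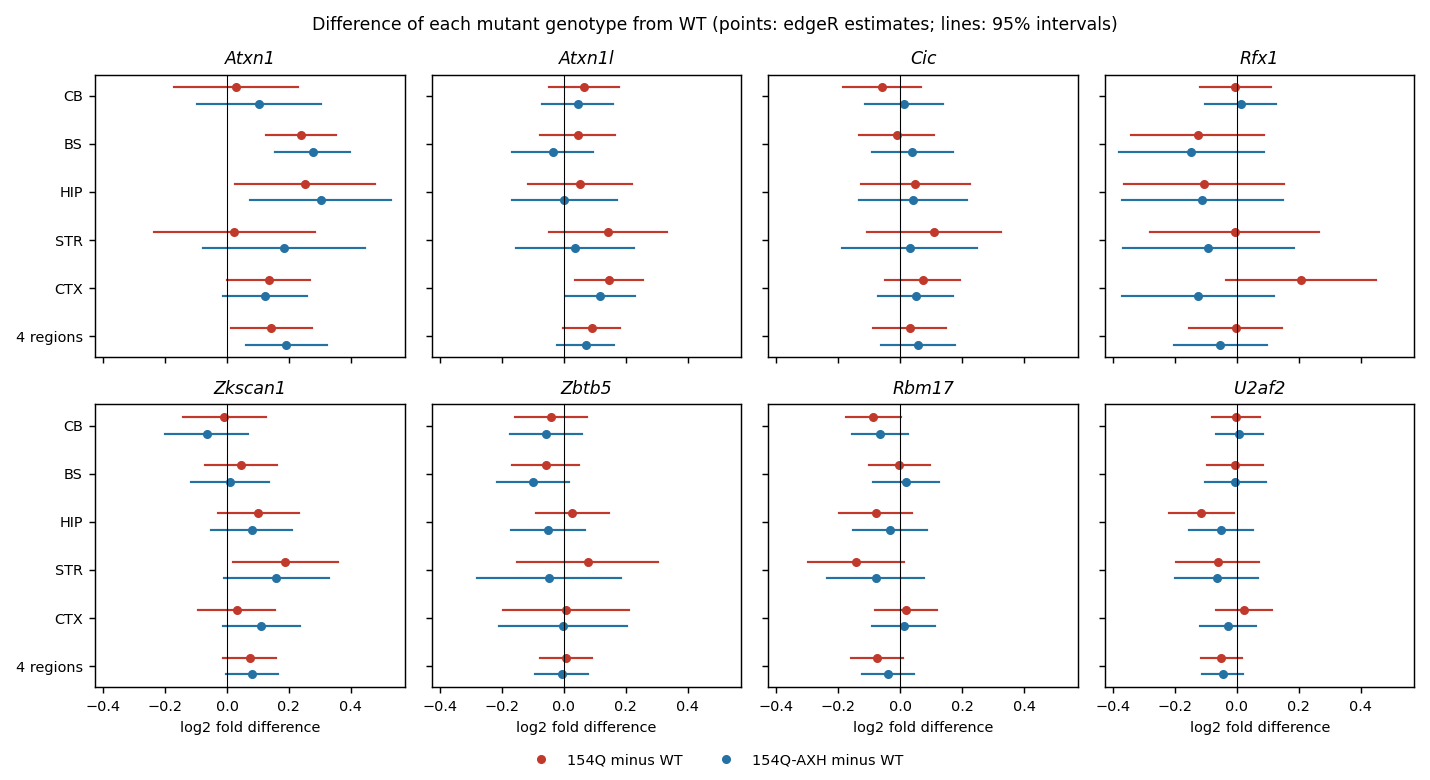
Log2 fold difference of 154Q and 154Q-AXH from WT for each gene in the 5 regions and in the sum of 4 regions per mouse, with the edgeR estimate as a point and its 95% interval as a line. All 12 Atxn1 points of this fit lie above 0, up to 0.30 in the hippocampus, and no gene passed an adjusted p of 0.05.

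The paralog Atxn1l was above WT by estimate in all 5 regions of 154Q mice (0.05 to 0.15, log2) and in 4 of 5 regions of 154Q-AXH mice (-0.04 to 0.12). Its largest difference was in the cortex, where the 4 WT mice had 49.3, 43.8, 45.5 and 47.3 CPM and the 4 154Q mice had 50.7, 51.2, 51.7 and 50.8 CPM. All 154Q libraries were above all WT libraries, by 0.15 on the log2 scale (95% interval 0.04 to 0.26, adjusted p = 0.0849 in the edgeR test). The 154Q-AXH cortical libraries, from 47.3 to 53.1 CPM, overlapped those of WT (0.12, adjusted p = 0.2). Without WT-221 the 154Q difference was 0.15 (adjusted p = 0.129), and without the pair whose file names and labels disagree it was 0.15 (0.119, edgeR test). The summed astrocyte markers of the cortex were 2211 to 2382 CPM in WT, 1723 to 2041 in 154Q and 1885 to 2010 in 154Q-AXH libraries, and the 4 pan-neuronal markers 5665 to 6191, 4462 to 5283 and 4841 to 5693 CPM. Their part in the difference was not tested.

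Cic itself did not pass in any comparison, and its differences from WT lay between -0.06 and 0.11 (log2), with 95% intervals from -0.19 to 0.33. In the cerebellum it was at 194, 162, 199 and 205 CPM in the 4 WT mice, at 174 to 187 CPM in 154Q and at 183 CPM or more in 154Q-AXH libraries. The 3 groups overlapped.

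Rfx1 had its largest difference between the mutant genotypes, in the cortex. It was at 28.2, 36.5, 22.7 and 25.9 CPM in the 4 154Q mice, and at 20.7, 22.6, 23.3 and 23.5 CPM in the 4 154Q-AXH mice. The 154Q libraries were spread over a wide range that took in most of the WT libraries (22.1 to 27.7 CPM) and reached into that of 154Q-AXH, and the difference of -0.33 (log2, 95% interval -0.58 to -0.09) had an unadjusted p of 0.0111 and an adjusted p of 0.744 in the edgeR test. In the hippocampus all 154Q-AXH libraries (20.2 to 21.6 CPM) lay just below all WT libraries (21.6 to 23.3 CPM), with a difference of -0.11 (adjusted p = 0.716), while 154Q libraries split into 25.1 and 24.1 CPM in 154Q-69 and 154Q-71 and 16.8 and 16.9 CPM in 154Q-75 and 154Q-76.

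Zkscan1 was higher in all striatal 154Q libraries (33.2 to 34.7 CPM) than in all WT ones (30.9, 31.2, 25.6 and 31.3 CPM in the 4 WT mice), by 0.19 on the log2 scale (adjusted p = 0.173 in the edgeR test). The 154Q-AXH libraries (31.1 to 35.3 CPM) overlapped those of WT (0.16, adjusted p = 0.44). The 5 striatal markers summed to 1269 to 4249 CPM in WT, 506 to 898 CPM in 154Q and 459 to 2509 CPM in 154Q-AXH libraries. The 6 oligodendrocyte markers summed to 9856 to 16719 CPM in WT and 7221 to 8796 CPM in 154Q striata. The part of these markers in the Zkscan1 difference was not tested. Without the striatal libraries of WT-220 and 154Q-AXH-217 the Zkscan1 differences were 0.13 and 0.12 (adjusted p = 0.184 and 0.351).

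Zbtb5 had no unadjusted p under 0.05 in any region, with differences from WT of -0.10 to 0.08 (log2) and intervals from -0.28 to 0.31. Rbm17 differed from WT by -0.14 to 0.02 and also had no unadjusted p under 0.05. U2af2 was lower in all hippocampal 154Q libraries (121 to 131 CPM) than in the WT ones (135 to 148 CPM), by -0.11 on the log2 scale (adjusted p = 0.195 in the edgeR test). Its 154Q-AXH libraries (129 to 144 CPM) overlapped both. In the cerebellum U2af2 was nearly level, with 136 to 138 CPM in WT and differences of 0.00 and 0.01.

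Since the libraries of 1 mouse are not independent across regions, counts were also summed per mouse over the cerebellum, hippocampus, striatum and cortex, which all 12 mice have. Raw counts were summed, so deeper libraries weigh more, and the weights of the regions differ between mice. Counted read pairs were 71.6 M in the hippocampus and 91 M in the cerebellum of WT-220, but 106 M and 85.7 M in WT-77. With limma on the mean log2 CPM, which weights the 4 regions alike, no call changed. None of the 8 genes passed, where 12.6% of all genes were called for 154Q against WT, 8.39% for 154Q-AXH against WT and 0.147% for 154Q-AXH against 154Q (edgeR test). At an unadjusted p under 0.05 there were 2 of 24 tests, both of Atxn1, against 19.6% of the tests of all genes, and DESeq2 called 1. The summed Atxn1 level was 57.4, 53, 63.3 and 60.3 CPM in the 4 WT mice, 70.2, 64.8, 65.8 and 57.6 CPM in the 4 154Q mice, and 69.2, 64.6, 67 and 66.3 CPM in the 4 154Q-AXH mice. All 154Q-AXH mice and 3 of 4 154Q mice were above all WT mice, and 154Q-76, whose hippocampal library is in the sum, was within the WT range. The differences were 0.14 for 154Q (log2, 95% interval 0.01 to 0.27, adjusted p = 0.152 in the edgeR test) and 0.19 for 154Q-AXH (0.06 to 0.32, adjusted p = 0.071). With the number series of the mice as a covariate they were 0.23 (adjusted p = 0.0583) and 0.11 (0.408), so that their order changed. Without mouse 154Q-76 they were 0.20 and 0.19, and both passed (adjusted p = 0.0379 and 0.0371), in fits that called 10.9% and 9.39% of all genes. The other 7 genes differed from WT by -0.07 to 0.09 (log2) in the sum.

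A genotype difference that changes with region was tested by the interaction of genotype and region over all 59 libraries. None of the 8 genes passed, for 154Q (lowest adjusted p = 0.399, U2af2) or for 154Q-AXH (lowest 0.849, Zkscan1), where 6.65% and 1.33% of all genes were called (edgeR test). At an unadjusted p under 0.05 there were 0 of 16 tests, against 15.2% of the tests of all genes, and DESeq2 called 0. For Atxn1 the interaction had an adjusted p of 0.669 and 0.994 in the edgeR test, so the larger estimates in the brainstem and hippocampus were not shown to differ from those in the other regions.

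Genes that act with the 8 genes were counted from lists taken from general knowledge, and their counts stand beside the share of all genes called in the same comparison, which for 154Q was 5.22% (cerebellum), 5.91% (hippocampus), 5.69% (striatum) and 11.1% (cortex), and for 154Q-AXH 2.21%, 1.3%, 1.35% and 7.15%. No test was made of a list against all genes or of 1 list against another. Of the 12 corepressor and nuclear partners, which include the histone deacetylases of CIC and RFX1 complexes, 2 were called higher and 0 lower in the 154Q cerebellum (Hdac1, 0.22, adjusted p = 0.0109, and Hdac2, 0.14, adjusted p = 0.0224, log2 differences from the edgeR test). The 154Q striatum had 1 higher (Hdac1, 0.26, adjusted p = 0.0356) and the 154Q cortex 2 higher (Hbp1, 0.28, adjusted p = 0.0324, and Hdac3, 0.17, adjusted p = 0.0371). In 154Q-AXH, 1 was called, Hdac1 in the cerebellum (0.20, adjusted p = 0.0363). The median of the 12 genes was 0.02 in the 154Q cerebellum and 0.05 in the cortex, against 0.00 and 0.01 over all genes tested.

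The 17 regulators of the ATXN1 level include the 14-3-3 proteins, which bind phosphorylated ATXN1, and the kinases that phosphorylate it. Ywhah, which encodes a 14-3-3 protein, was lower in the 154Q cerebellum (-0.31, adjusted p = 0.000813) and hippocampus (-0.35, adjusted p = 0.0202), and Ywhab, another 14-3-3 gene, was higher in the cerebellum (0.13, adjusted p = 0.0182, edgeR test). The kinase gene Rps6ka5 was higher in the hippocampus of 154Q (0.26, adjusted p = 0.0152) and 154Q-AXH mice (0.26, adjusted p = 0.0362), and in the 154Q-AXH cortex Rps6ka3 was lower (-0.18, adjusted p = 0.049). In all, 2 of 17 were higher and 1 lower in the 154Q hippocampus (5.91% of all genes), and 1 higher and 1 lower in the 154Q cerebellum (5.22%). None of the 12 tested genes of 3' splice site recognition was called in any region, beside Rbm17 and U2af2.

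The relatives of the DNA-binding partners were counted by family. Of the 8 tested RFX genes, 1 was called in any region, Rfx5, a regulator of MHC class II genes, higher in the 154Q hippocampus (0.35, adjusted p = 0.0201 in the edgeR test). Of the 10 ZKSCAN genes, 1 was higher in the 154Q cerebellum, 2 in hippocampus, 1 in striatum and 3 in cortex, and 0 were lower. Zkscan2 was among them in all 4 (0.35, 0.40, 0.62 and 0.37, adjusted p = 0.00301, 0.0236, 0.0495 and 0.0287), and Zkscan16 was higher in the hippocampus (0.54, adjusted p = 0.00689) and cortex (0.33, adjusted p = 0.0316). In 154Q-AXH mice Zkscan2 was higher in the cerebellum (0.32, adjusted p = 0.0128) and Zkscan16 in the hippocampus (0.44, adjusted p = 0.0434). Zkscan1 itself was not called in any of these.

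Of the 32 ZBTB genes, 1 was higher and 5 lower in the 154Q hippocampus (5.91% of all genes), 2 higher and 3 lower in the 154Q cortex (11.1%) and 1 higher and 3 lower in the 154Q-AXH cortex (7.15%). Zbtb2 was lower in the 154Q hippocampus (-0.42, adjusted p = 0.0086), Zbtb1 lower in the cortex of 154Q (-0.38, adjusted p = 0.000506) and 154Q-AXH mice (-0.44, adjusted p = 0.000248), and Zbtb17, which encodes the MYC partner MIZ1, lower in the striatum of 154Q (-0.35, adjusted p = 0.00888) and 154Q-AXH mice (-0.30, adjusted p = 0.0415, edgeR test). In the 154Q cortex Zbtb18, a transcriptional repressor needed for the differentiation of cortical neurons, was also lower (-0.35, adjusted p = 0.000898). The 9 genes that CIC is known to repress had 5 lower of 9 in the 154Q cortex (11.1% of all genes called) and 4 lower of 9 in the 154Q-AXH cortex (7.15%), led by Dusp6, a phosphatase of ERK (-0.55, adjusted p = 0.000421, and -0.59, adjusted p = 0.000322). Their medians were -0.30 and -0.29, while Cic itself differed from WT by 0.07 and 0.05 there. In the striatum 2 of 9 were lower in each mutant genotype, and in the hippocampus 1 of 9 was lower in 154Q (median -0.16) and 0 in 154Q-AXH. Without the hippocampal library of 154Q-76, 1 of 9 was lower there in each mutant genotype, with medians of -0.12 in 154Q and -0.27 in 154Q-AXH. The astrocyte and pan-neuronal markers of the cortex, the hippocampal and pan-neuronal markers of the hippocampus and the striatal and oligodendrocyte markers of the striatum given above differed between the same libraries. In the cerebellum the 4 cerebellar markers summed to 4685 to 5187 CPM in WT, 3864 to 4086 CPM in 154Q and 4276 to 4531 CPM in 154Q-AXH libraries, without overlap with WT. The part of these markers in the calls of the lists was not tested. In the cerebellum 0 of 9 CIC targets were called in 154Q, and 1 of 9, Etv4, was higher in 154Q-AXH (0.34, adjusted p = 0.026).

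The calls of the lists were counted again without the libraries that stood apart. In the hippocampus without 154Q-76, Ywhah, Rps6ka5, Rfx5, Zkscan2, Zkscan16 and Zbtb2 passed in 154Q as before (adjusted p from 0.00461 to 0.0399 in the edgeR test), and 0 ZBTB genes were higher and 5 lower. The calls of Prkacb and Zbtb25 (genes named because their calls changed) were lost (adjusted p = 0.0543 and 0.0838) and that of Rfx8 was gained (0.0384). In 154Q-AXH 6 list genes were gained there and none lost, among them Rfx5, Zkscan2 and Zbtb2 (adjusted p = 0.0495, 0.0408 and 0.0132). The CIC-repressed gene Dusp6 was also gained in 154Q-AXH (adjusted p = 0.0251, against 0.066 with all libraries, edgeR test). Its log2 difference was -0.66 in both fits. The share of all genes called also rose without this library, from 1.3% to 3.61% in 154Q-AXH and from 5.91% to 6.06% in 154Q.

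In the cortex without WT-221, 7.54% of all genes were called in 154Q and 4.62% in 154Q-AXH, and without the pair whose file names and labels disagree 9.8% and 4.25%. Zbtb1 and Dusp6 passed in both genotypes and Zbtb18 in 154Q in each of these fits (adjusted p of 0.00357 or below in the edgeR test), and the CIC-repressed genes had 5 lower in 154Q and 3 in 154Q-AXH in both. Hdac3 did not pass in either (adjusted p = 0.0713 and 0.106), nor did Rps6ka3 (0.141 and 0.181), and Hbp1 did not pass without WT-221 (0.0705). The ZBTB genes had 1 higher and 2 lower in 154Q in both fits.

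In the striatum without WT-220 and 154Q-AXH-217, 11.8% of all genes were called in 154Q and 5.06% in 154Q-AXH, against 5.69% and 1.35% with all libraries. The libraries left out had the highest striatal markers (4249 and 2509 CPM). Those kept held 239 to 318 CPM of cortical markers, so these counts are not those of a purer striatum. Hdac1, Zkscan2 and Zbtb17 passed in 154Q (adjusted p = 0.00742, 0.0136 and 0.011 in the edgeR test), and Zbtb17 did not in 154Q-AXH (0.0515). The CIC-repressed genes there had 5 lower in 154Q and 3 in 154Q-AXH, against 2 and 2 with all libraries.

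**Figure D4:**
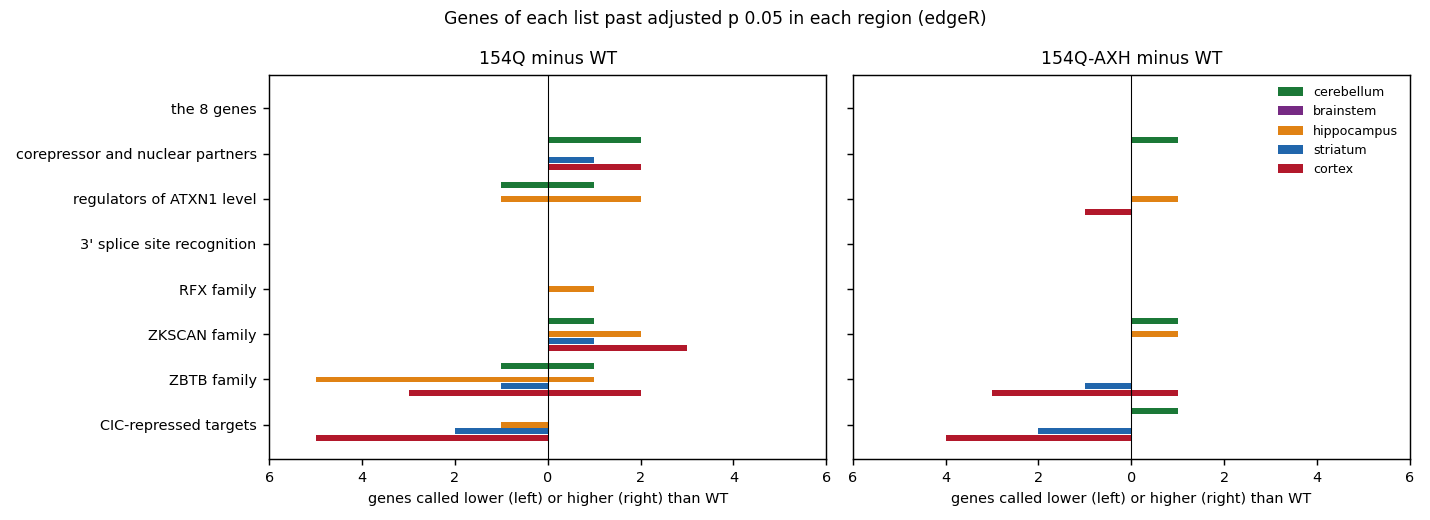
Number of genes past an adjusted p of 0.05 (edgeR) in each list, for 154Q (left panel) and 154Q-AXH (right panel) against WT, with bars to the right for genes higher and to the left for genes lower than WT and a color for each region. The 8 genes have no bar, the longest bars are the 5 genes lower among the ZBTB genes in the 154Q hippocampus and among the CIC-repressed genes in the 154Q cortex, and the brainstem has no bar in any list.

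Across all 59 libraries, the genes whose log2 CPM followed each of the 8 genes most closely were found among 24290 genes. The points share libraries, mice and regions, so the values are descriptions over 59 points, most of whose spread is that between regions. For Atxn1 they were Tmem136 (Pearson r = 0.914), Celf2 (0.898) and Jade3 (0.892). For Atxn1l they were Ankrd12 (0.923), Phf21a (0.922) and Kmt5b (0.917), and for Cic they were Phrf1 (0.949), Tgfbrap1 (0.94) and Wnk2 (0.938). Rfx1 was followed by Traf7 (0.972), Zfp672 (0.952) and Usp21 (0.947), Zkscan1 by Rc3h1 (0.986), Ddx6 and Gm42732 (both 0.984), and Zbtb5 by Zfp862-ps (0.928), Elf2 (0.925) and Kank2 (0.918). For Rbm17 they were Fam192a (0.897), Chtop (0.887) and Hdgf (0.881), and for U2af2 Banf1 (0.976), Mrpl57 (0.967) and Angptl6 (0.965). Among the 8 genes, the highest correlation was that of Cic and Rfx1 (r = 0.81) and the lowest that of Zkscan1 and U2af2 (-0.81). After the mean of each region and genotype was taken away, these were 0.17 and -0.18, and the highest value over the 28 pairs was that of Cic and Zkscan1 (0.63). Atxn1 and Cic had r = 0.09 over all libraries and 0.08 after the group means were removed.

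Some of the 8 genes share exon bases with a neighbor, and STAR without strand leaves a read pair that falls on both genes uncounted. Atxn1 shares 375 bases (2.7% of its exon bases) with Gmpr on the other strand, Zbtb5 shares 726 (13%) with the antisense gene 1700055D18Rik, Rfx1 shares 42 with the antisense gene C330011M18Rik, and Zkscan1 shares 202 with the pseudogene Gm43493 on the same strand. The count without strand was below the sum of the 2 stranded counts by a median of 7.35% for Atxn1, 5.95% for Rfx1 and 8.09% for Zbtb5, and by at most 0.194% in any library for the other 5 genes. For Zkscan1 this comparison cannot show a loss, because pairs on a same-strand overlap are left uncounted in the stranded counts too. With first-strand counts, 0 of the 120 genotype tests passed, as with the main counts.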

How the data were processed

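RNA-seq libraries of polyA RNA from 5 brain regions of 12 mice were used, 59 in all. Per the labels and the study's methods, the authors used Trimmomatic 0.36 to trim the paired-end reads and aligned them to GRCm38.p6 with STAR 2.7.2d and GENCODE annotation. The deposited values are raw counts of read pairs per gene (1 library per file, nothing pooled), of which the unstranded column was analysed. Between 48.9% and 50.1% of stranded counts fell on the first strand. This share was at least 50.04% in the striatal and cortical libraries and at most 49.7% in those of the other regions. Pairs counted on a gene made up 75.3% to 81.2%. A line for a human transgene held 0 to 53 counts and was left out of the tests.

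Groups and mouse numbers came from the labels, so replicates are separate mice. No pair of libraries was identical, and the 87 pairs within groups all differed by more than sampling noise (chi-square per degree of freedom of at least 6.18). Gene positions are those of GENCODE M21 on the same build, which held 54165 of the 54232 genes. Counts were filtered with filterByExpr, scaled by TMM and tested with the edgeR quasi-likelihood test (edgeR 4.0.16, R 4.3.3) across all genes, with Benjamini-Hochberg adjustment and a threshold of 0.05. There were 3 genotypes in 1 fit within a region, all region pairs in WT mice, the interaction of genotype and region, and counts summed per mouse. CPM values used a prior count of 2 on the log2 scale only. The same number marks the same mouse in all regions. The mean correlation of deviations from the group means between regions was 0.00488, 0.019, -0.00155 and 0.0188 for WT-70, WT-77, WT-220, then WT-221, and -0.00332 for different mice.

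The 8 genes were chosen by name and the other lists from general knowledge, both with earlier results of these data known. In the other lists the genes named are up to 2 with the lowest adjusted p in a comparison, and the 3 genes most like each of the 8 were those with the highest Pearson correlation. Alternatives were DESeq2 1.42.0 and its size factors, no filter, first-strand counts, other covariates and samples, the mouse as a block, limma 3.58.1 on mean log2 CPM, and leaving out each mouse. Leaving out the striatal libraries of WT-220 and 154Q-AXH-217, the striatal library of WT-220 in the region pairs, the striatum in the sum, or the hippocampal, cortical and striatal libraries that stood apart in the list counts was added after seeing the data. Not every gene of the lists is reported here by name. The edgeR code was tested on simulated data made from these libraries.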

Additional observations from a re-analysis of the deposited data

Results flagged for a closer look

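Of 112 groups of 4 libraries (8 genes, region and genotype), 6 held 1 library far from the other 3, where chance gives about 1 group in 20. The hippocampal library of 154Q-76 was low in Atxn1 (66.5 CPM against 93.1 to 95.2) and in Cic (124 against 140.2 to 143). The striatal library of WT-220 was high in Atxn1 (66.1 CPM against 45.1 to 47.5) and low in Zkscan1 (25.6 against 30.9 to 31.3). The brainstem library of 154Q-76 was high in Zbtb5 (12.6 CPM against 11.7 to 11.8), and the cortical library of 154Q-75 was high in U2af2 (174 CPM against 159.9 to 162). The first 2 libraries are those whose region markers stood apart: brainstem markers summed to 306 CPM in the hippocampal library of 154Q-76, and striatal markers to 4249 CPM in that of WT-220, the highest of the striatum. The part of these markers in the 4 values was not tested.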

How the results depend on the processing

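No gene was called in the genotype comparisons within regions under the size factors of DESeq2, no filter on low counts, first-strand counts, Xist or the mouse number series as a covariate, or fits of only 2 genotypes. DESeq2 called 2 (Atxn1 in the brainstem of both mutant genotypes), and comparison with only the WT mice of the same number series called 1 (Zkscan1 in the 154Q-AXH cerebellum, log2 difference -0.18, adjusted p = 0.0176 in the edgeR test). Leaving out each mouse in turn gave 0 to 2 calls, 1 without WT-77 and 2 without 154Q-76, all of Atxn1. In the sum per mouse, DESeq2 called 1 and a fit of only 2 genotypes called 1, both Atxn1 in 154Q-AXH (adjusted p = 0.0347 and 0.0451). Leaving out each mouse gave 0 to 2, with 1 without WT-220 (Atxn1 in 154Q-AXH, 0.23, adjusted p = 0.0481) and 2 without 154Q-76. Without the striatum in the sum, 0 were called (Atxn1 0.16 and 0.19, adjusted p = 0.132 and 0.115). The cause of these changes was not tested. No result with a call changed direction. The mouse number series is tied to genotype, since all 154Q mice are in the lower and all 154Q-AXH mice in the higher series, and WT mice are in both. With the series as a covariate, Atxn1 in the cerebellum was 0.20 in 154Q and -0.05 in 154Q-AXH against 0.03 and 0.10, and in the sum per mouse 0.23 and 0.11 against 0.14 and 0.19 (log2). The lowest count of the 8 genes was 241 read pairs (Zbtb5), and the part of counting error in the intervals was not tested.

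With the mouse as a replicate block, 54 of the 80 region tests passed against 51 without it, and the interaction still called 0. Leaving out each WT mouse gave 42 to 50, and leaving out the striatal library of WT-220 gave 50. Within a region each mouse gives 1 library, so no block by mouse could be fitted there.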
